A study of Homo sapiens with 8 samples.

Results

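The first 30000000 bp of human chromosome 1, the outer end of its short arm (bands 1p36 to 1p35), were described by FAIRE-seq in AIRE-Tet cells. Membership was set by position alone: a window of the deposited hg19 count table belonged if it lay on chromosome 1 and started between positions 1 and 30000000. Of the 256141 windows in the table, 8331 (3.25%) did, and they formed 1187 of 35741 merged regions. The first began at position 713901 and the last ended at 29610400. In FAIRE-seq, fixed chromatin is extracted with phenol and chloroform and the DNA left in the water layer is sequenced. That DNA is loosely held by nucleosomes, as at active promoters and enhancers.

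AIRE-Tet is 1 engineered line of HEK293, a human embryonic kidney line, and carries the Tet-On Advanced system with a doxycycline-inducible human AIRE gene in every group. The design crossed AIRE induction with etoposide. DoxEtop cells received 1.5 µM doxycycline and, after 24 h of induction, 2 µM etoposide for 24 h. Dox cells received doxycycline only, Etop cells received 2 µM etoposide for 24 h only, and Control cells received neither. Each group had 2 biological replicates, so 4 induced libraries stood against 4 without induction. No group received doxycycline without the AIRE gene, so an effect of AIRE and one of doxycycline cannot be told apart. The windows carry no gene names, so neither AIRE expression nor the cell type could be checked here.

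AIRE, the autoimmune regulator, acts in the medullary epithelium of the thymus, where it raises the expression of many tissue-restricted genes and so exposes developing T cells to self proteins. It binds no strict DNA sequence of its own and works with partners at chromatin, among them topoisomerases. Etoposide traps topoisomerase II on cut DNA and leaves breaks. The outer short arm of chromosome 1 is rich in genes.

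Summed over the 8 libraries, a window of the segment held 113 to 666 counts, with a median of 157, against 160 in the rest of the table. The segment's column totals count a fragment once per window it falls in and are no measure of library depth. They were 177138 and 164315 in DoxEtop and 167443 and 143953 in Dox. In Etop they were 229071 and 143271, and in Control 260265 and 205858. The largest totals thus belonged to libraries without induction, and a minimum on summed counts gives larger libraries more weight. Its share of all counts was 3.34% and 3.26% in the DoxEtop libraries and 3.24% and 3.21% in the Dox libraries. It was 3.21% and 3.14% in the Etop libraries and 3.14% and 3.03% in the Control libraries. The mean share was 3.26 ± 0.0565% with induction and 3.13 ± 0.0735% without (SD, n = 4 each), and the 2 arms overlapped. Merged regions, which join windows with gaps of 100 bp or less, had a median width of 350 bp and lay a median of 6175 bp apart. Regions of 300 bp or less numbered 516 (43.5%), and 102 (8.59%) were wider than 1000 bp. Libraries of 1 group correlated with r between 0.327 (Etop) and 0.525 (Dox) over the segment's log2 CPM, with a median of 0.481. CPM is the count scaled to the TMM-adjusted column total of its library. Libraries of different AIRE state had r between -0.00377 and 0.489, with a median of 0.197, so the ranges overlapped. Control 1 correlated at 0.489 with Dox 1 and at 0.464 with Control 2.

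With AIRE induction more windows of the segment were called lower than higher, although only 44.5% of all its windows had a log2 fold change below 0. By edgeR's quasi-likelihood test at a Benjamini-Hochberg adjusted p of 0.05 over all windows, 394 windows (4.73%) were lower and 135 (1.62%) were higher, 529 in all (6.35%). In the whole table, by comparison, 6.17% of windows were lower, 1.27% were higher and 7.44% were called either way. On the rest of chromosome 1, 8.05% were lower and 1.24% higher. The lower windows had a median log2 fold change of -1.47 and the higher windows of 1.17. The median over all windows of the segment was 0.08, against -0.03 on the rest of chromosome 1 and 0.04 over the table. Of the merged regions, 124 (10.4%) were lower and 22 (1.85%) higher, against 12.9% and 1.42% of all regions. In 509 windows every induced library was below every library without induction (6.11%, against 7.49% of the table), and in 450 every one was above (5.40%, against 4.98%).

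The number of calls rested heavily on single libraries and on the tool. It was 175 without Control 2, 217 without DoxEtop 1, 284 without Dox 2 and 314 without Etop 1, against 697 without Control 1, and limma-voom called 15. The 146 called regions became 61 without Control 2, 72 without DoxEtop 1, 93 without Etop 1 and 96 without Dox 2. Windows kept by a minimum on summed counts that treats both arms alike numbered 6536, of which 263 (4.02%) were lower and 117 (1.79%) higher, against 5.30% and 1.34% of such windows in the table.

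The share of lower calls was smallest in the outermost block and, in the reported fit, became larger with each block inward. Of 2221 windows in the outermost 5 Mb, 20 (0.900%) were lower and 41 (1.85%) were higher. The next 4 blocks of 5 Mb had 3.60%, 4.82%, 5.01% and 7.26% lower windows. In the innermost block 149 of 1776 windows (8.39%) were lower and 28 (1.58%) higher, so its share of lower windows was near that on the rest of chromosome 1. Counted as merged regions, 5 of 292 (1.71%) were lower in the outermost block and 40 of 221 (18.1%) in the innermost, against 12.9% of all regions. The higher calls had no such order, with 0.615% to 2.30% over the 6 blocks. The blocks were drawn after the values were known and their differences have no test. The innermost block had a larger share of lower windows than the outermost in the reported fit and in all 14 alternatives, although with limma-voom the shares were 0.0563% and 0. The shares rose at every step in 7 of these 15 settings and the innermost block had the largest in 10. The innermost and outermost shares were 2.93% and 0.135% without Control 2, and 3.27% and 0.450% without DoxEtop 1. They were 4.22% and 0.405% without Dox 2, 4.95% and 0.630% without Etop 1, and 6.81% and 0.495% without Dox 1.

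The outermost block also stood apart in its level, which comes from the same counts as its calls. The median over its windows of log2 CPM, relative to the mean of the 8 libraries, averaged 0.12 ± 0.05 in induced libraries and -0.07 ± 0.09 in libraries without induction (SD, n = 4 each). All 4 induced libraries lay above all 4 others there. In the innermost block the averages were 0.03 ± 0.02 with induction and 0.05 ± 0.05 without, and the arms overlapped. Narrow regions of 300 bp or less held 12.8% of the windows in the outermost block and 11.0% in the innermost. In the blocks between they held 16.1%, 15.9%, 21.1% and 13.6%, in order inward.

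**Figure D1:**
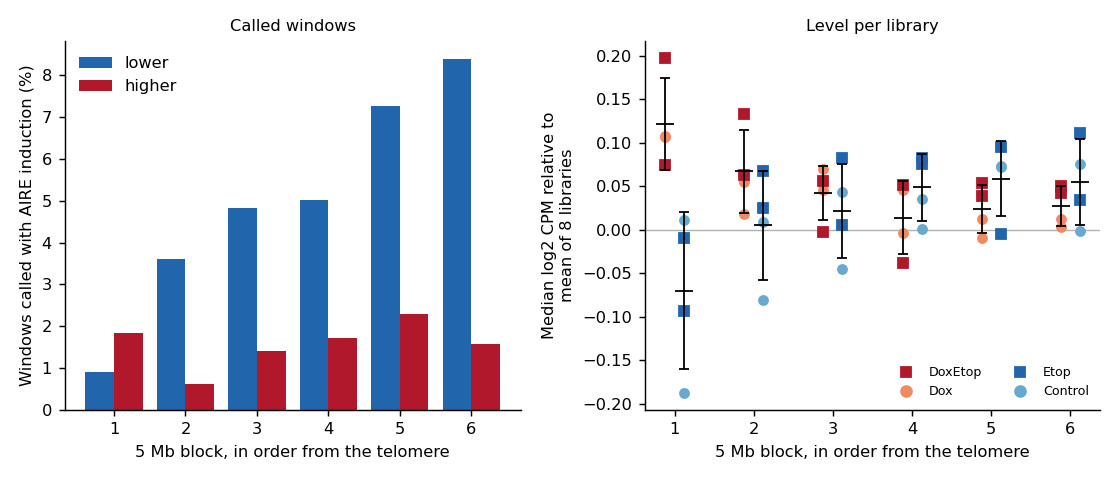
Percentage of windows lower (blue) or higher (red) with AIRE induction in each 5 Mb block in order from the telomere (left), and the median over each block's windows of log2 CPM relative to the mean of the 8 libraries (right; points are libraries, induced left of not induced, bars mean ± SD of 4). The share of lower windows is 0.900% in block 1 and 8.39% in block 6, against 6.17% over the table, and the arms are separate in block 1.

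Segments of 1 Mb varied more, against 6.17% lower and 1.27% higher windows over the table. Among those with at least 100 windows, the largest shares of lower windows were 62 of 540 (11.5%) in the segment ending at 28000000, 17 of 163 (10.4%) in that ending at 16000000 and 26 of 258 (10.1%) in that ending at 24000000. The smallest were 1 of 319 (0.313%) in the segment ending at 4000000, 4 of 501 (0.798%) in that ending at 3000000 and 1 of 100 (1%) in that ending at 8000000. Higher windows were most frequent in the segment ending at 21000000, with 10 of 163 (6.13%), followed by 8 of 187 (4.28%) in that ending at 30000000 and 8 of 258 (3.10%) in that ending at 24000000. In 5 of these segments no window was higher. Some of these shares rest on few merged regions, with 29 in the segment ending at 21000000, 22 in that ending at 16000000 and 20 in that ending at 30000000. Overlapping windows of 1 region can supply several of the calls.

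Over the segment as a whole the level differed little between the arms. The median relative log2 CPM was 0.09 and 0.06 in DoxEtop and 0.05 and 0.04 in Dox, against 0.04 and 0.02 in Etop and 0.03 and -0.05 in Control. Induced libraries averaged 0.06 ± 0.02 and the others 0.01 ± 0.04 (SD, n = 4 each), and Etop 1 lay above Dox 2. The rest of chromosome 1 went the other way, with 0.00 ± 0.02 in induced libraries and 0.06 ± 0.02 in the others. The segment minus the rest of chromosome 1 was 0.0571 ± 0.0375 with induction and -0.0507 ± 0.0634 without. With 1 window per region the difference between arms over the segment was -0.055 in place of 0.049. Its sign thus depended on whether all windows or 1 window per region were used, and the cause was not tested.

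**Figure D2:**
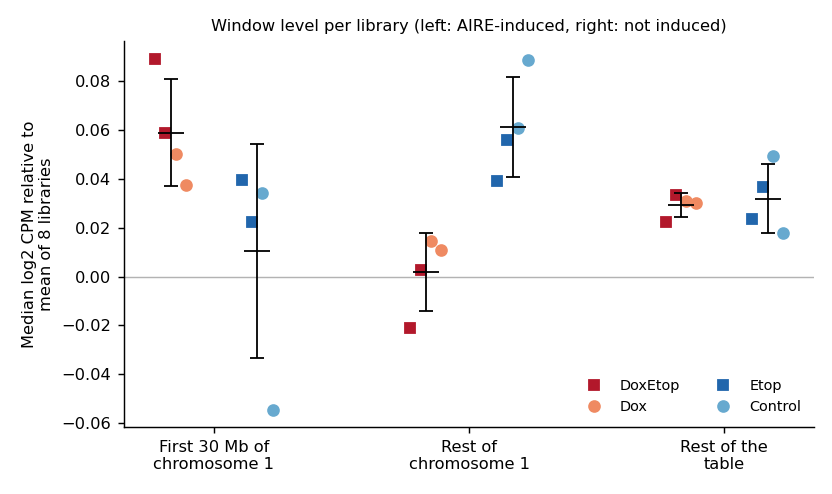
Median over windows of log2 CPM relative to the mean of the 8 libraries, for the first 30 Mb of chromosome 1, its rest and the rest of the table (points are libraries, bars mean ± SD of 4; induced left of not induced). Induced libraries sit at 0.04 to 0.09 in the segment and at -0.02 to 0.01 on the rest of chromosome 1.

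Within the segment, the direction of change went with region width. Of windows in regions of 300 bp or less, 8.66% were lower and 0.825% higher, against 9.98% and 0.523% in the rest of the table. In regions of over 1000 to 2000 bp, 2.41% were lower and 2.60% higher, against 4.72% and 1.70% in the rest of the table. The segment had only 7 regions over 2000 bp, with 1.43% lower and 2.14% higher windows. In the rest of the table that widest class had 7.01% lower and 1.92% higher, so lower calls were not fewest there. Of the segment's regions, 164 (13.8%) held a lower window, 65 (5.48%) a higher one and 11 (0.927%) both, against 16.2%, 4.58% and 0.61% of all regions of the table. Every window was lower in 44 (3.71%, against 3.88%) and higher in 2 (0.168%, against 0.109%). Of 22 neighbouring pairs of regions holding a called window within 5 kb, 14 were lower together, 3 were higher together and 5 were opposite. Within 20 kb these were 34, 6 and 21 of 61 pairs, and within 100 kb 80, 13 and 52 of 145. Of the 218 regions that held a called window, 159 were lower and 59 higher by their leading window, so pairs lower together are frequent at any distance. This set is wider than the 124 lower and 22 higher regions called on p-values combined over the region. No share over the whole table is given, and grouping by position was not tested.

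Single regions are named by their window with the smallest p where it was called, had a mean level above the table's median window and had no overlap between groups. Rankings of losses and gains hold among these windows, and larger log2 fold changes occurred outside them. The deepest loss named was in a 400 bp region at chr1:25558801-25559200. Its leading window had 0.373 and 1.58 CPM in DoxEtop and 0.953 and 0.221 in Dox, against 8.90 and 4.17 in Etop and 2.65 and 9.44 in Control. All 4 induced libraries were below all 4 others, which themselves spread widely. The means were 0.782 ± 0.620 CPM with induction and 6.29 ± 3.39 CPM without (SD, n = 4 each), and the log2 fold change was -2.98 (SE 0.458, edgeR adjusted p = 8.9e-06). The window was lower in Dox against Control (-3.25, adjusted p = 0.00967) and in DoxEtop against Etop (-2.76, adjusted p = 0.00853), and 5 of the region's 6 windows were lower.

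The call with the smallest p came from the second strongest region of the segment, chr1:16947151-16947900. Its window had 2.61 and 4.55 CPM in DoxEtop and 3.24 and 3.53 in Dox, against 16.5 and 9.86 in Etop and 8.43 and 19.9 in Control. The induced libraries lay close together and below all others. Means were 3.48 ± 0.808 CPM with induction and 13.7 ± 5.45 without, a log2 fold change of -1.97 (SE 0.272, edgeR adjusted p = 1.36e-06). The loss covered 7 of 11 windows on the region's inner side. The strongest region of the segment lay 6.5 kb before it, at chr1:16939201-16940650, and its top window had 15.1 and 17.2 CPM in DoxEtop and 14.5 and 16.3 in Dox, against 11.2 and 16.0 in Etop and 15.7 and 10.0 in Control. That top window did not pass the test (log2 fold change 0.26, adjusted p = 0.465), but 1 window at the region's outer edge was lower (-2.68, adjusted p = 0.000351).

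At chr1:27324151-27324600 the leading window had 1.87 and 0.593 CPM in DoxEtop and 1.33 and 1.32 in Dox, against 6.60 and 8.77 in Etop and 6.14 and 5.24 in Control. Here the libraries without induction were even, and the log2 fold change was -2.35 (SE 0.372, edgeR adjusted p = 1.54e-05), with 6 of 7 windows lower. At chr1:15852951-15853800 the window had 1.31 and 2.97 CPM in DoxEtop and 1.53 and 3.75 in Dox, against 15.6 and 8.99 in Etop and 4.58 and 14.4 in Control (log2 fold change -2.20, SE 0.325, adjusted p = 4.56e-06). That loss covered 5 of 15 windows at the region's outer end. The region with the most lower windows was chr1:27018901-27019950, where 11 of 15 were lower, in separate stretches at its ends, and whose leading window had a log2 fold change of -2.10 (adjusted p = 5.68e-05).

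Every window was lower in 2 of the remaining named regions, chr1:23031001-23031350 (-2.07) and chr1:21581701-21582050 (-1.75). The others were chr1:29609901-29610400 (-1.97), the innermost region of all, chr1:21660801-21661600 (-1.86) and chr1:6844301-6845600 (-1.77). The 10 regions were 350 to 1300 bp wide. No count of their leading windows exceeded 23 in an induced library, and none was below 17 in the others.

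The gains named were smaller, in regions of 550 to 1650 bp. The steadiest was at chr1:16825501-16826150, with 6.34 and 6.53 CPM in DoxEtop and 6.48 and 6.62 in Dox, against 1.58 and 3.07 in Etop and 3.01 and 2.40 in Control. The 4 induced libraries were almost equal and all above the others, at 6.49 ± 0.114 CPM against 2.51 ± 0.693 (SD, n = 4 each; log2 fold change 1.38, SE 0.319, edgeR adjusted p = 0.00288). At chr1:23503901-23504650, the gain with the smallest p, the window had 9.14 and 6.92 CPM in DoxEtop and 6.10 and 9.70 in Dox, against 2.73 and 3.07 in Etop and 3.85 and 2.996 in Control. Its groups were apart, with a log2 fold change of 1.32 (SE 0.286, adjusted p = 0.00135). The largest gain named was at chr1:10458501-10459950, with 5.41 and 5.34 CPM in DoxEtop and 6.10 and 3.53 in Dox, against 3.16 and 1.75 in Etop and 1.20 and 1.65 in Control (1.41, SE 0.367, adjusted p = 0.00955). Etop 1 came close to the lowest induced library there. Outside the naming rule, a window of chr1:935301-937850 had a larger value (1.44, adjusted p = 0.0072).

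Of the remaining 7 named gains, those at chr1:29240651-29241950 (1.35), chr1:901551-902550 (1.32) and chr1:21044401-21044950 (1.29) also passed when p-values were combined over their regions. Those at chr1:21671101-21672350 (1.33), chr1:1243301-1244250 (1.29), chr1:29062901-29064200 (1.25) and chr1:26437301-26438950 (1.17) did not, with regional adjusted p-values of 0.0564, 0.0522, 0.068 and 0.157. The 10 gains had adjusted p-values of 0.00135 to 0.0272 at the window. In the regions starting at 21671101, 21044401, 29062901 and 26437301, Dox against Control gave 0.56, 0.73, 0.72 and 0.51, none of them called. DoxEtop against Etop gave 2.40, 1.91, 1.81 and 1.80 there. In those starting at 10458501 and 1243301 the value without etoposide was the larger, at 1.76 and 1.45, against 1.08 and 1.12. The interaction was called at none of them. All 10 named losses kept their calls whichever library was left out, while 7 of the 10 gains lost theirs without at least 1 library.

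**Figure D3:**
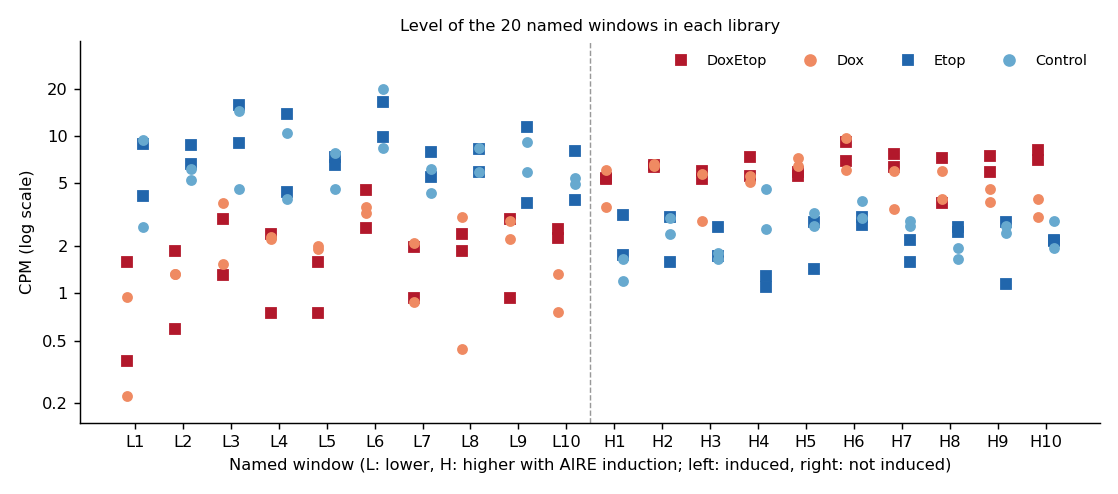
CPM (log scale) of the leading window of the regions named by the rule, with the 10 lowest (L1 to L10) and 10 highest (H1 to H10) log2 fold changes with AIRE induction, 1 point per library, induced left of not induced. The arms do not overlap in any of the 20, since that was part of the rule that chose them, and the L windows differ by more (-2.98 to -1.75) than the H windows (1.17 to 1.41).

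A gain and a loss met inside chr1:29240651-29241950. From 29241151 to 29241450, 4 windows were higher, with log2 fold changes up to 1.37, and from 29241551 to 29241950, 4 windows were lower, down to -1.44. The leading window of the gain had 5.97 and 5.34 CPM in DoxEtop and 2.86 and 5.73 in Dox, against 1.72 and 2.63 in Etop and 1.81 and 1.65 in Control. The gain lay in a dip between the peaks that the libraries without induction had in this region, and the loss lay on the inner of these peaks.

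**Figure D4:**
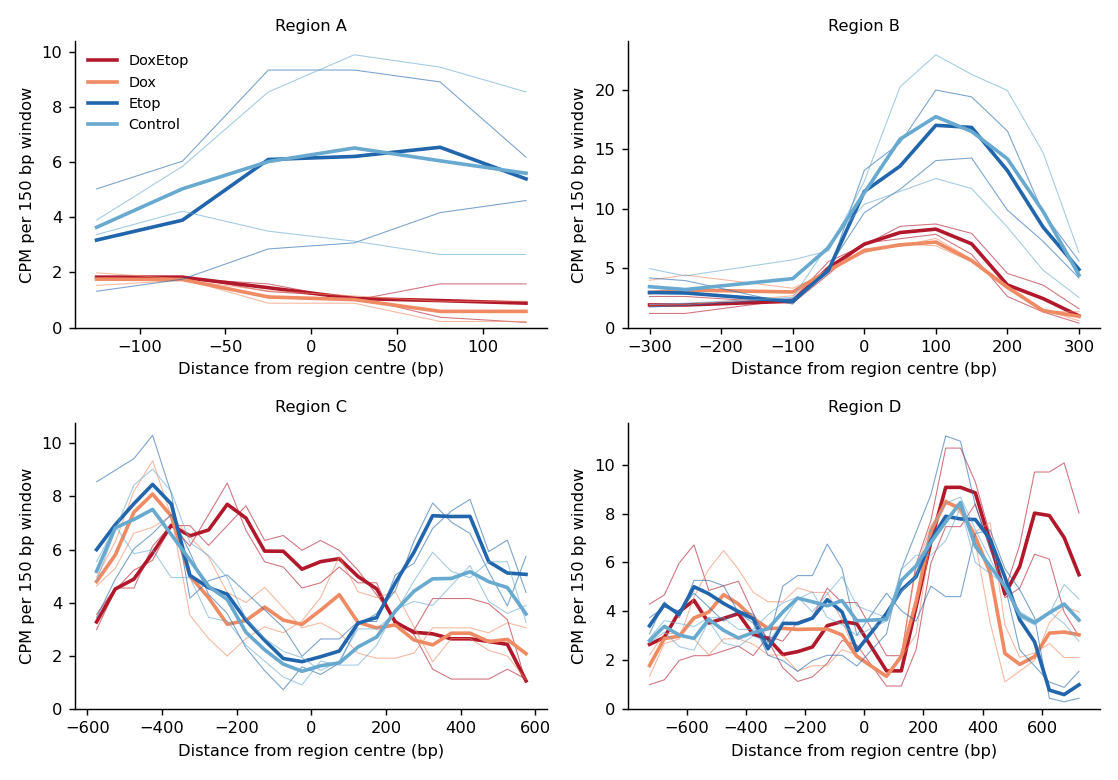
CPM per window against distance from the region's centre in 4 regions (thick lines are means of 2 libraries, thin lines single libraries). Panel A is chr1:25558801-25559200, B is chr1:16947151-16947900, C is chr1:29240651-29241950 and D is chr1:25572951-25574550; induced libraries are below the others over the right side of A and B, above them in the middle of C, and DoxEtop is above Etop at the right edge of D.

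AIRE induction was also compared without etoposide (Dox against Control) and with it (DoxEtop against Etop), in 1 model of the 4 groups. Without etoposide 42 windows of the segment (0.504%) were lower and 0 higher, against 0.848% and 0.0156% of the table's windows. In that comparison 846 windows had an unadjusted p under 0.05 (10.2%, against 10.9% of the table). With etoposide 138 (1.66%) were lower and 43 (0.516%) higher, against 2.43% and 0.45% of the table. As regions, 17 (1.43%) were lower without etoposide, against 1.84% of all regions. With etoposide 55 regions (4.63%) were lower and 7 (0.590%) higher, against 5.36% and 0.613% of all regions. These pairs share no library. Of the windows called lower, 23 were lower in both, 54.8% of those called without etoposide and 16.7% of those called with it, against 57.6% and 20.1% over all windows of the table, and 0 windows were called in opposite directions. Over 1 window per region (n = 1187), which share 1 fit and its scaling, the log2 fold changes of the pairs had Pearson's r of 0.567 and Spearman's rho of 0.513, and 68.0% had the same sign. Over all regions of the table these were 0.566, 0.509 and 68.1%, so the segment stood near the general level. DoxEtop against Control gave 67 lower (0.804%) and 17 higher windows (0.204%), against 1.48% and 0.154% of the table.

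These counts hung on single libraries. Those without etoposide were 0 without Control 2, Dox 1 or Dox 2, and 83 without Control 1, 74 without Etop 2 and 65 without Etop 1, while DESeq2 called 4 and limma-voom 0. Those with etoposide were 0 without DoxEtop 1, 29 without Etop 1 and 484 without Etop 2, while DESeq2 called 33 and limma-voom 0. For DoxEtop against Control they were 0 without Control 2 or DoxEtop 1, and 55 without Dox 2, 132 without Control 1, 166 without Etop 1 and 172 without Etop 2, while DESeq2 called 9 and limma-voom 0.

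**Figure D5:**
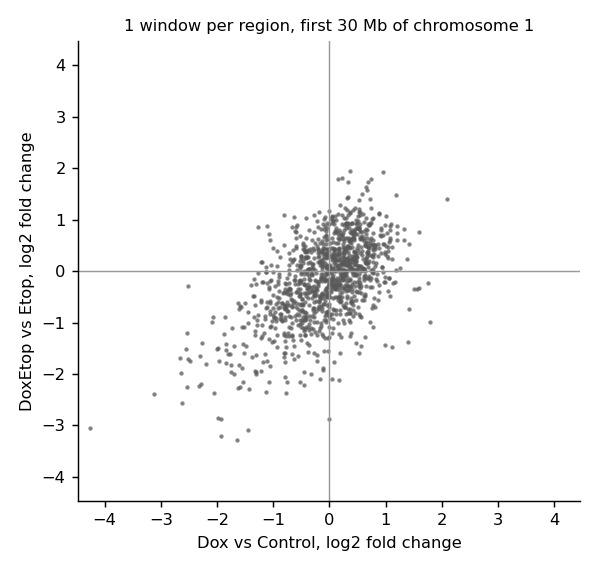
Log2 fold change of DoxEtop against Etop (vertical) and of Dox against Control (horizontal) in 1 window for each of the 1187 regions, the one with the highest summed count. The cloud runs from lower left to upper right, with r of 0.567, and reaches farther to the negative side on both axes.

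By the same rule, and besides the 25558801 region, the lowest in Dox against Control were at chr1:16947151-16947900 (-2.73, adjusted p = 0.00315), chr1:6403251-6403850 (-2.64, adjusted p = 0.0225) and chr1:1337501-1337900 (-2.51, adjusted p = 0.0253). The last had 0.953 and 1.10 CPM in Dox, against 3.73 and 8.24 in Control, but 1.31 and 5.54 in DoxEtop, against 4.16 and 4.17 in Etop. Its DoxEtop libraries lay on either side of both Etop libraries (log2 fold change -0.29, adjusted p = 0.819). The interaction was not called there.

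In DoxEtop against Etop the lowest window by the rule was at chr1:21650901-21651350. It had 0.373 and 1.19 CPM in DoxEtop and 9.48 and 6.36 CPM in Etop. The log2 fold change was -3.34 (SE 0.599, edgeR adjusted p = 0.000866). Dox had 2.86 and 1.54 CPM there and Control 2.53 and 5.24, which overlapped (log2 fold change -0.78, adjusted p = 0.632). The next by the rule were chr1:28655251-28655700 (-2.84), chr1:25558801-25559200 (-2.76) and chr1:23031001-23031350 (-2.73). Outside the rule, the edge window of chr1:16939201-16940650 was at -3.31 (adjusted p = 0.0133) and a window of chr1:27018901-27019950 at -3.11. In DoxEtop against Control the lowest by the rule were chr1:17240051-17241150 (-2.63), chr1:25558801-25559200 (-2.58), chr1:28655251-28655700 (-2.57) and chr1:23866251-23866650 (-2.46), and outside it the same edge window was at -3.26 (adjusted p = 0.0203).

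The largest gain named in DoxEtop against Etop lay at the inner edge of chr1:25572951-25574550, 13.75 kb from the 25558801 region. The window had 9.70 and 6.13 CPM in DoxEtop and 2.67 and 3.53 in Dox, against 0.431 and 1.10 in Etop and 3.97 and 3.89 in Control. DoxEtop was above and Etop below all other libraries, while Dox was below Control by a small margin. The log2 fold change was 3.44 (SE 0.578, edgeR adjusted p = 0.00039) in DoxEtop against Etop and -0.35 (adjusted p = 0.847) in Dox against Control. The test of the difference between these gave 3.79 (SE 0.765), the smallest interaction p of the segment at 7.14e-06, which did not pass adjustment over all windows (adjusted p = 1).

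The next by the rule were chr1:21671101-21672350 (2.40), chr1:29450401-29451150 (2.38) and chr1:935301-937850 (2.23), the last not passing over its region (adjusted p = 0.0686). A window of chr1:2177901-2178350, outside the rule, was at 2.46 (adjusted p = 0.0486). In the 3 regions named by the rule both Etop libraries were below both Control libraries. At chr1:21671101-21672350 DoxEtop had 5.60 and 7.32 CPM, Dox 5.53 and 5.07, Etop 1.29 and 1.10, and Control 4.58 and 2.55. In DoxEtop against Control the highest by the rule were chr1:10458501-10459950 (1.91, adjusted p = 0.0451), chr1:29448351-29450150 (1.84), chr1:932401-934200 (1.71) and chr1:26437301-26438950 (1.63), and none of the 4 passed over its region.

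Etoposide changed no window of the segment past the threshold, and by edgeR it changed 0 of the 256141 windows of the whole table. The additive model called 0 windows by edgeR, DESeq2 and limma-voom, and 491 had an unadjusted p under 0.05 (5.89%, against 5.83% of the table). Etop against Control gave 0 calls and 474 windows at that unadjusted level (5.69%, against 5.57% of the table). DoxEtop against Dox gave 0 and 362 (4.35%, against 4.26%), and the interaction 0 and 366 (4.39%, against 4.14%). Each had 0 calls in the segment by DESeq2 and limma-voom too, and 0 in the whole table by edgeR. Without Etop 2, Etop against Control called 4. The lowest adjusted p of the additive model was 0.618. The smallest p belonged to chr1:21965401-21965600, where the window had 2.61 and 2.97 CPM in DoxEtop and 6.03 and 5.26 in Etop, against 1.53 and 0 in Dox and 1.32 and 1.80 in Control. Both groups with etoposide were above both without, with a log2 fold change of 1.82 (SE 0.448).

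In the window at chr1:3318951-3319350, DoxEtop had 0.933 and 1.58 CPM and Etop 0.287 and 1.97, against 5.91 and 3.97 in Dox and 4.58 and 1.95 in Control, and the arms overlapped at Etop 2 and Control 2 (log2 fold change -1.83, adjusted p = 0.618). The region chr1:15852951-15853800 had a different reading at its other end: where its outer end was lower with AIRE, the window at 15853451 had 8.58 and 4.95 CPM in DoxEtop and 9.19 and 5.26 in Etop, against 2.67 and 3.75 in Dox and 3.73 and 2.55 in Control. The log2 fold change for etoposide there was 1.15 (SE 0.302, adjusted p = 0.639), and that for AIRE was -0.06.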

How the data were processed

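The authors deposited raw counts per window for 8 FAIRE-seq libraries, with windows 150 bp wide at steps of 50 bp. The submitters' processing notes name hg19, Trim Galore, Bowtie2 and Bowtie, with no version, and how windows were chosen, duplicates treated or input used is not given in the sources used here. Per the labels' protocols, reads were paired-end and each library was sequenced 2 times. Every window of the table held at least 111 summed counts, so it was filtered before deposit. Input libraries were not analysed here.

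All 256141 windows were fitted with edgeR 4.0.16 (R 4.3.3; TMM on column totals, glmQLFit, glmQLFTest, two-sided, Benjamini-Hochberg over all windows, threshold 0.05), and only those of the segment are described. AIRE induction and etoposide came from an additive model (5 residual degrees of freedom), the other contrasts from a model of the 4 groups (4). filterByExpr removed 0 windows, and replicates varied with a common biological coefficient of 26.3%. Since fragments fall in several windows, regions were merged at gaps up to 100 bp, and Simes' p was adjusted over 35741 regions. SE is the log2 fold change divided by the root of F. Levels are CPM on TMM-scaled totals, with a prior count of 2 on the log2 scale. Segment levels are given without a p because they summarise chosen members, although an exact permutation test had been planned for them.

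Named regions are represented by their window with the smallest p. For AIRE they are the 10 lowest and 10 highest log2 fold changes among called windows with a mean CPM above the table's median and no overlap of groups; other comparisons name 4 each way, or 3 values by smallest p where nothing was called. The members, blocks and rules were chosen with earlier results of these data known. DESeq2 1.42.0, limma-voom (limma 3.58.1), other scalings, filters, a replicate block and leaving out each library were tried. Replicates of a group differed by more than sampling noise (chi-square per degree of freedom 1.92 to 3.08). Deviations of equally numbered libraries from their group means correlated at -0.0732 to 0.120. With 2 libraries a group this cannot decide whether equally numbered samples were prepared together. The procedure was tested on simulated data. No hg19 genome or annotation was used, so no genes or sequences are given.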

Additional observations from a re-analysis of the deposited data

Results flagged for a closer look

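Of 48 groups of 4 libraries examined for a library far from the rest, 2 stood out, where chance flags about 1 in 20. In the leading window of chr1:27018901-27019950, lower with AIRE induction, DoxEtop 1 had 0.746 CPM, far below the other 3 induced libraries at 2.21 to 2.37. In the leading window of the gain at chr1:29240651-29241950, Etop 2 had 2.63 CPM, above the other 3 libraries without induction at 1.65 to 1.81, and still below every induced library.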

How the results depend on the processing

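AIRE induction kept more lower than higher calls in the segment under every setting tried except limma-voom, which gave 7 lower and 8 higher (15 in all). Its 529 calls became 313 when windows below the table's median summed count were left out, with 3998 windows tested, and 175 to 697 when a library was left out. DESeq2 size factors (531), DESeq2 (431), loess offsets (512), the replicate block (500) and the selection alike for both arms (380, chosen after seeing the data) stayed within 1.5 times. Merged regions numbered 61 to 199 with a library left out (also chosen after seeing the data).

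Dox against Control gave 4 calls with DESeq2, 0 with limma-voom and 27 with the replicate block, and 0 to 83 with a library left out. DoxEtop against Etop gave 33 with DESeq2, 0 with limma-voom and 0 to 484 with a library left out. DoxEtop against Control gave 9, 0 and 0 to 172. Etop against Control gave 0 to 4, and etoposide, DoxEtop against Dox and the interaction gave 0 throughout. Whether equal replicate numbers mark paired samples was not established. The block left the calls of DoxEtop against Etop at 153 and of DoxEtop against Control at 65.

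The level difference of 0.049 over the segment became -0.055 with 1 window per region and 0.083 with the selection alike for both arms, and 0.025 to 0.063 with a library left out. With a library left out it was 0.029 to 0.064 relative to the rest of the table and 0.072 to 0.127 relative to the rest of chromosome 1. No named window changed sign, and limma-voom kept the call of 4 of the 20 named for AIRE induction; the cause of the differences between tools was not tested. Low counts per window limit single calls.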
